A study of Capra hircus with 2 samples.

Results

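The cells described here were chosen from 2 droplet libraries of fetal goat (Capra hircus) ovary as candidate ovarian surface epithelium, by their keratin and desmoplakin transcripts. A cell barcode belonged to the set if it had 500 or more genes detected and at least 4 unique molecular identifiers (UMIs, counts of captured mRNA molecules) of KRT8, KRT19 and DSP together, with at least 2 of these genes detected. It could carry at most 1 UMI of the granulosa genes FST, HSD17B1, INHA and AMH together, at most 1 of the germ cell genes FIGLA and DDX4 together, and none of the endothelial gene PECAM1. Of the barcodes with 500 or more genes, 297 at E125 and 197 at E85, stages named by embryonic day, met the keratin and desmoplakin threshold, and 116 and 158 of these met the granulosa limit. The whole rule selected 226 of 12743 barcodes, which are called the keratin-selected barcodes below. They were 92 of 8346 barcodes at E125, or 1.10% (exact binomial 95% interval 0.890 to 1.35), and 134 of 4397 at E85, or 3.05% (2.56 to 3.60).

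Both libraries were labelled as ovary of female fetuses and carried no genotype or treatment label, and each stage had 1 library. The cell collection protocol given with them speaks of testes, whereas the egg coat gene ZP3 was at 2151 CPM in the other barcodes at E125 and 1056 CPM at E85. The labels say neither how many fetuses a library held nor their breed. Fetal ovary at these ages holds germ cells, the somatic cells that enclose them, stroma, vessels and the covering epithelium.

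The ovarian surface epithelium is the single layer of mesothelium-like cells that covers the ovary. It derives from the coelomic epithelium of the genital ridge, where the transcription factors WT1, EMX2 and LHX9 act in the mouse, and in the fetal mouse it is also a source of pregranulosa cells. Its cells carry keratins of simple epithelia, keep mesenchymal features such as N-cadherin and vimentin, and in the adult are known for making complement, retinoid-processing enzymes and barrier proteins.

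The E125 library held 49692252 UMIs and the E85 library 17748948. The keratin-selected barcodes were deeper than the remaining barcodes of their library, with a median of 12858.5 UMIs against 3017 at E125 and 7202.5 against 2942 at E85. They held 3.31% of the library's UMIs at E125 and 7.10% at E85. At E125, 28 of the 92 had 20000 or more UMIs and together supplied 63.9% of the set's UMIs. The mitochondrial share of UMIs had a median of 5.80% in the keratin-selected barcodes and 3.51% in the other barcodes at E125, and of 8.29% and 4.18% at E85. The libraries shared 13 barcodes, none of them in the set. Since each stage is 1 library and barcodes of a library are not replicates, no test was run and no p-value is given. Every 95% interval below covers counting error only.

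Levels are in CPM, the UMIs of a gene over all UMIs summed over a class of barcodes, times 1000000, so they weight deep barcodes more. A gene counted as measured in a comparison if the mean of both CPM values was at least 50, and was called higher or lower at a difference of 2-fold. The values in brackets after a fold are its 95% interval.

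KRT8 and KRT19, the keratins of simple epithelia, and DSP, the desmosomal plaque protein desmoplakin, chose the set, so their levels describe the choice and support nothing. KRT8 was at 353 CPM at E125 and 480.3 CPM at E85, and was found in 92 of 92 and 118 of 134 keratin-selected barcodes. KRT19 stood at 169 CPM at E125, in 45 barcodes, and at 648 CPM at E85, in 114. DSP was at 240.1 CPM at E125, in 80 barcodes, and at 208 CPM at E85, in 90. The E125 set was thus one of KRT8 and DSP, with KRT19 in fewer than 1 of every 2 barcodes, whereas most E85 barcodes carried both keratins. The barcodes just inside the limit, with a sum of 4, numbered 6 at E125 and 27 at E85. Those just outside, with a sum of 3 and every other condition met, numbered 11 and 37. NMB stood at 247 CPM just inside and 193 CPM just outside at E125, and at 203 and 467 CPM at E85. WT1 stood at 863 CPM just inside and 532 CPM just outside at E125, and at 339 and 262 CPM at E85.

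The other 3 marker genes proposed for this epithelium were not part of the selection. They were, however, proposed with earlier results of these data known, so their levels describe the set and do not test its name. NMB encodes the peptide neuromedin B. It stood at 191 CPM in the keratin-selected barcodes and 22.6 CPM in the other barcodes at E125, 8.45-fold higher (7.43 to 9.59). At E85 it stood at 261 CPM against 57.1 CPM, 4.58-fold higher (4.02 to 5.19). Per barcode its UMIs ran from 0 to 28 at E125, with a median of 1, and from 0 to 21 at E85, again with a median of 1, so 52 of 92 and 84 of 134 barcodes carried it. RDH10, the retinol dehydrogenase that begins retinoic acid synthesis, was at 271 CPM in the keratin-selected barcodes at E125 and 112 CPM in the others, 2.42-fold higher (2.19 to 2.66). It was at 213 CPM against 47.9 CPM at E85, 4.44-fold higher (3.85 to 5.11), and was found in 64 of 92 and 62 of 134 barcodes. PCSK1, the convertase that cleaves prohormones in secretory granules, was at 179 CPM against 31.2 CPM at E85, 5.74-fold higher (4.89 to 6.73). At E125 it was under the measuring limit, at 54.1 CPM against 20.6 CPM. Granulosa barcodes, a class defined below, held more PCSK1 than the set at E125, at 93.1 CPM, and less at E85, at 114 CPM.

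**Figure D1:**
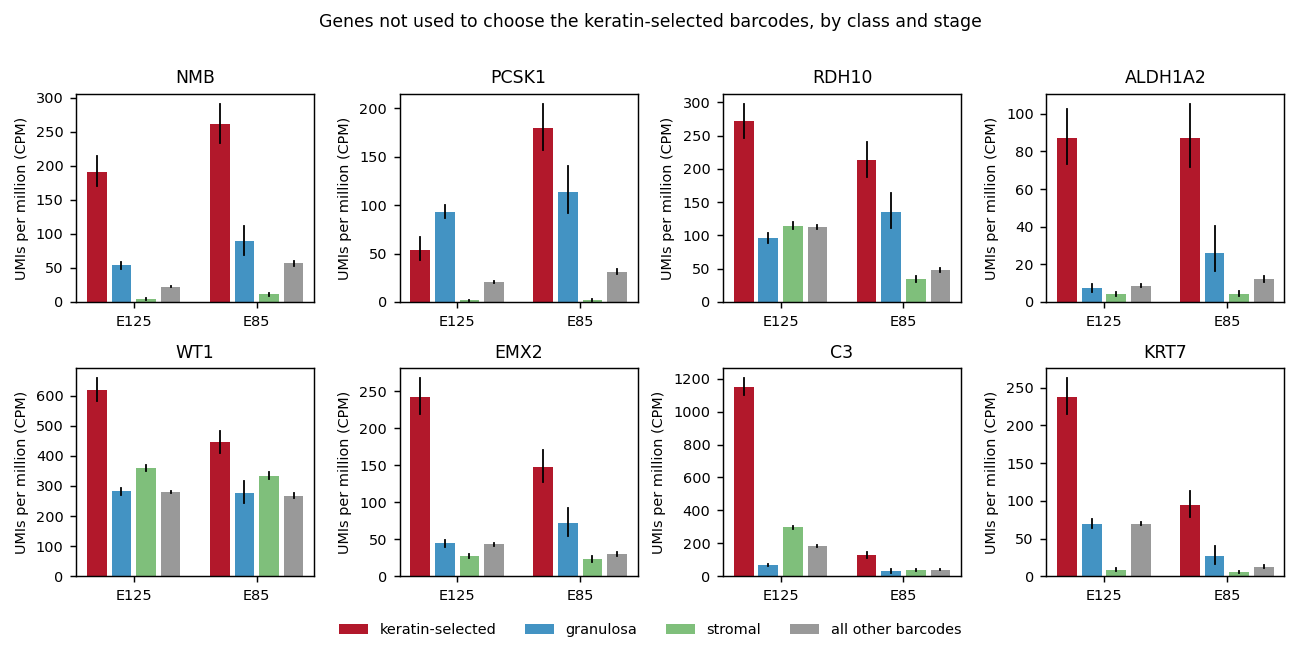
CPM (vertical) of 8 genes that the selection did not use, in keratin-selected, granulosa, stromal and all other barcodes at E125 and E85, with bars for the class sums and lines for 95% counting intervals. NMB, EMX2, ALDH1A2 and KRT7 are highest in the keratin-selected barcodes at both stages, while PCSK1 at E125 is higher in granulosa barcodes.

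The label was checked against a list of surface epithelium and mesothelium genes, 20 of 26 of which have a feature under their symbol in these files. UPK3B, MSLN, MUC16, ITLN1, KRT18 and PODXL, several of them the usual defining markers, were not analysed here. At E125 4 of the 7 measured genes were higher and none lower in the keratin-selected barcodes than in the others, with a median log2 ratio of 1.14 against 0.05 over all 2766 measured features, of which 6% were 2-fold higher and 9.04% 2-fold lower. At E85 3 of 6 were higher and 1 lower (EZR, whose ratio of 0.494 was between 1.39 and 1.64 under 3 alternatives), with a median of 1.25 against -0.08 over all 2432 measured features, of which 5.22% were higher and 4.93% lower. KRT7, a further simple-epithelium keratin that the rule did not use, was 3.40-fold higher (3.06 to 3.78) at E125, at 238 CPM against 69.8 CPM, and 7.38-fold higher (5.85 to 9.29) at E85, at 94.5 CPM against 12.8 CPM. It was found in 48 of 92 and 41 of 134 barcodes, and its E125 ratio was 11.3 without the other barcodes of 20000 or more UMIs. WT1, the zinc finger factor of coelomic epithelium, kidney and gonad, was at 619 CPM against 280.1 CPM at E125, 2.21-fold higher (2.07 to 2.35), and at 445 CPM against 268 CPM at E85, 1.66-fold higher (1.52 to 1.81) and short of the 2-fold call. WT1 was also plentiful in stromal barcodes, at 360.2 and 334 CPM, and its E125 ratio was 1.51 when each barcode had equal weight and 1.85 without the other barcodes of 20000 or more UMIs. ALDH1A2, the retinaldehyde dehydrogenase of fetal mesothelium and coelomic epithelium, stood at 86.9 CPM against 8.49 CPM at E125 and 87.3 CPM against 12.1 CPM at E85. BNC1, a zinc finger factor of mesothelium, stood at 59.6 CPM against 31.9 CPM at E125 and 52.4 CPM against 14.2 CPM at E85. Both were under the measuring limit in these 2 comparisons, yet found in 52 of 92 and 50 of 92 barcodes at E125 and 54 of 134 and 41 of 134 at E85.

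Several other genes of the list were nearly silent. HAS1 and UPK2 had 0 UMIs in the set at both stages. UPK1B had 1 UMI at E125 and 0 at E85, and LGR5, a stem cell receptor of adult mouse ovarian surface epithelium, had 4 and 2. CDH1, which encodes E-cadherin, had 17 UMIs at E125 and 5 at E85. CDH2, which encodes N-cadherin, was at 95.4 CPM in the keratin-selected barcodes at E125 and 27.4 CPM in the others, 3.48-fold higher (2.93 to 4.11), and at 19.8 against 11.04 CPM at E85. Genes of the list present in the set included WT1, ALDH1A2, KRT7, BNC1, C3, ALDH1A1, TM4SF1 and IGFBP2. TM4SF1 was found in 77 of 92 barcodes at E125 and 87 of 134 at E85, and IGFBP2 in 81 and 89, all without thinning. At E125 neither gene was called higher or lower in the set than in the other barcodes, so their presence there does not set it apart. Their E85 calls are not given by gene here. EMX2 and LHX9, factors of coelomic epithelium outside the list, were present too. The uroplakin and hyaluronan synthase markers of mesothelium with a feature were at or near 0. The name ovarian surface epithelium rests in these data on the genes present, some of which, WT1 and C3 among them, were also common in stromal barcodes.

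Markers of other cell types were summed in the same barcodes. Of the tubule and rete markers, EPCAM, the epithelial adhesion molecule of tubules, had 28 UMIs at E125 and 10 at E85, and PAX8, a transcription factor of the kidney and mesonephric ducts, had 9 and 8. EPCAM and PAX8 were only a small part of the list's summed level in the set, and its other genes are not given by gene here. Of the list's 15 genes 6 had 0 UMIs at E125 and 9 at E85, and the summed level was 136 CPM in the keratin-selected barcodes against 118 CPM in the others at E125 and 117 against 107 CPM at E85. Per barcode they were more widespread in the set, with at least 1 UMI of the list in 66.3% of keratin-selected, 22.3% of granulosa and 14.9% of other barcodes at E125, and in 53.7%, 23.2% and 21.3% at E85. Their median was 84.7 CPM per keratin-selected barcode at E125 and 78.4 CPM at E85, and 0 in the other 2 classes. Stromal markers summed to 694 CPM against 3902 CPM at E125, where 6 of 8 measured genes were lower and none higher, and to 1136 against 3973 CPM at E85, where 9 of 11 were lower and none higher. Per barcode the stromal sum had a median of 575 CPM and reached 23853 CPM at E125, and at E85 had a median of 808 CPM and reached 10260.1 CPM. Germ cell markers summed to 119 CPM against 3238 CPM at E125 and to 192 against 1757 CPM at E85, with all 3 and all 4 measured genes lower. Per barcode the gap was smaller, with medians of 110 against 237 CPM at E125 and 0 CPM in both classes at E85. Without thinning, at least 1 UMI of this list was in 76.1% of keratin-selected and 60.6% of other barcodes at E125. At E85 the shares were 47.8% and 40.2%. Endothelial markers summed to 243 against 541 CPM at E125 and 237 against 253 CPM at E85, with CLDN5 at 0. Their median per barcode was 204 CPM in the keratin-selected barcodes, 63.6 CPM in granulosa barcodes and 0 in the others at E125, and 168, 156 and 0 CPM at E85. Perivascular and muscle markers summed to 186 against 589 CPM at E125 and 425 against 417 CPM at E85, with medians per barcode of 67.3 against 242 CPM and 301 against 204 CPM. The part of RNA from these other cell types in the results was not tested. Markers of myeloid and lymphoid cells summed to 5.47 CPM against 109.8 CPM at E125 and 23.8 against 263 CPM at E85, and glial and erythroid markers to 1 UMI in the set at E125 and 2 at E85.

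Granulosa markers were in 90.2% of keratin-selected barcodes at E125 and 80.6% at E85. Apart from the 4 genes limited by the rule, the list summed to 589.6 CPM in the keratin-selected barcodes and 485 CPM in the others at E125, and to 492 against 295 CPM at E85. In barcodes chosen as granulosa the sum was 1512 CPM at E125 and 1270.2 CPM at E85. KITLG, the ligand that granulosa cells offer to the oocyte receptor KIT, was at 130.1 CPM against 74.5 CPM at E125 and 188 CPM against 57.3 CPM at E85, 3.28-fold higher (2.83 to 3.79). The part of granulosa RNA in these values was not tested. With the limit on the 4 granulosa genes set to 0 UMIs, 51 barcodes remained at E125 and 100 at E85.

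Across all features, 166 were higher and 250 lower in the keratin-selected barcodes than in the other barcodes at E125, and 127 higher and 120 lower at E85. Among the 1697 features with a symbol that were measured at both stages, 50 were higher at both, which is 53.8% of those higher at E125 and 57.5% of those higher at E85. Another 61 were lower at both, 44.9% and 82.4% of those lower at each stage. The genes highest at both stages, by the smaller of their 2 ratios, were of mixed function.

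TF, the iron carrier transferrin, was at 96.0 CPM against 11.1 CPM at E125, 8.66-fold higher (7.20 to 10.4), and at 102 CPM against 13.2 CPM at E85, 7.72-fold higher (6.16 to 9.65). It was found in 59 of 92 barcodes at E125 and 65 of 134 at E85, so it was spread over the set and not the product of a few barcodes. EMX2, the homeobox factor that the mouse needs to form its gonads and kidneys, was at 243 CPM against 43.2 CPM at E125, 5.61-fold higher (5.03 to 6.24), and at 148 CPM against 30.4 CPM at E85, 4.86-fold higher (4.08 to 5.76). It was found in 76 of 92 and 84 of 134 barcodes, that is in most of the set at both stages. CITED1, a transcriptional co-regulator of embryonic kidney, was at 583 CPM against 77.5 CPM at E125, 7.52-fold higher (6.99 to 8.07), and at 132 CPM against 30.1 CPM at E85, 4.37-fold higher (3.65 to 5.22).

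EXPH5, an effector of vesicle transport in skin epithelium, was 4.54-fold higher at E125 and 5.20-fold higher at E85. TMEM114, a membrane protein of the claudin superfamily, was 4.12-fold higher and 5.13-fold higher at these stages. LGALS3, the galactose-binding lectin galectin-3, was 4.52-fold higher at E125 and 3.70-fold higher at E85. The scaffold gene KANK4 was 5.78-fold higher at E125 and 4.07-fold higher at E85, and the secreted cytokine-like gene CYTL1 was 4.69-fold higher and 4.47-fold higher. SORBS2, an adaptor of the actin cytoskeleton, NIBAN1, PDE1C, a phosphodiesterase, AK5, an adenylate kinase, and CLSTN3, an adhesion protein of synapses, completed the 15, between 3.97-fold (SORBS2) and 7.72-fold (AK5) higher at E125. Those 5 genes lay between 3.21-fold (SORBS2) and 3.96-fold (NIBAN1) higher at E85. Without the other barcodes of 20000 or more UMIs the E125 ratios of LGALS3, CITED1 and NMB were 12.7, 12.6 and 13.7.

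**Figure D2:**
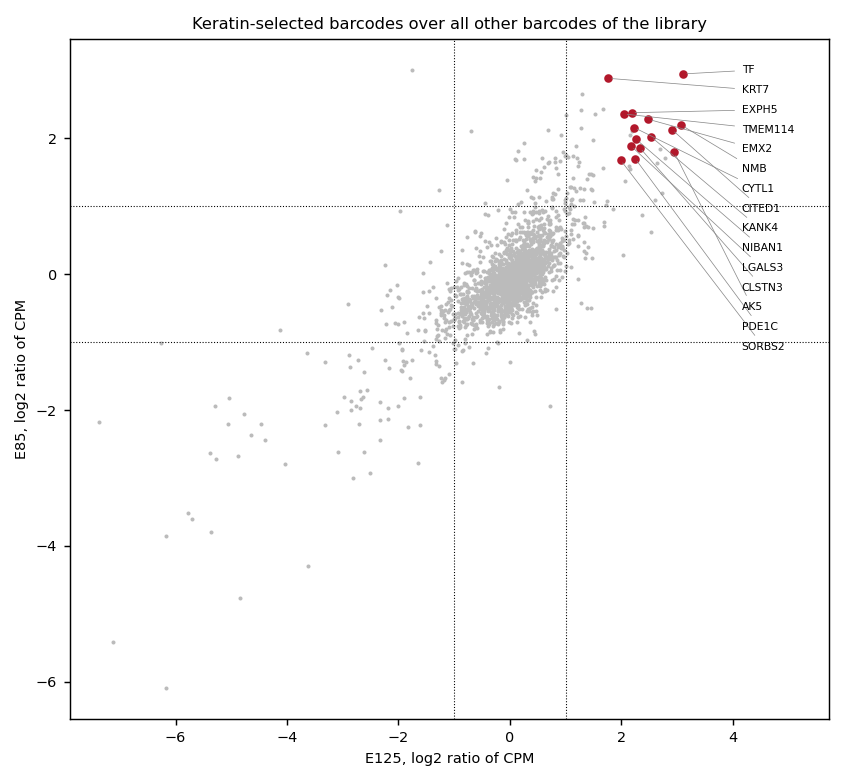
Log2 ratio of CPM in keratin-selected barcodes over the other barcodes of the same library, at E125 (horizontal) and E85 (vertical), with each point a feature measured at both stages and dotted lines at 2-fold. The 15 named genes, TF, EMX2, NMB and CITED1 among them, lie beyond 2-fold on both axes, upper right.

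At E125 the highest ratio was that of ERICH3, at 274 CPM against 17.9 CPM, 15.3-fold higher (13.6 to 17.1). It was followed by CPXM2, a secreted carboxypeptidase-like protein, at 171 CPM against 11.9 CPM, 14.3-fold higher (12.4 to 16.5), and TOX3, a chromatin-binding HMG-box protein, 9.80-fold higher, with a ratio of 19.2 without the other barcodes of 20000 or more UMIs. ERICH3 was found in 50 of 92 barcodes and CPXM2 in 63 of 92. At E85 all 3 were under the measuring limit, with ERICH3 at 61.9 CPM against 14.4 CPM, CPXM2 at 46.0 CPM against 5.94 CPM and TOX3 at 26.2 CPM against 4.06 CPM. At E85 the highest ratio was that of CA4, a carbonic anhydrase anchored on the cell surface, at 88.9 CPM against 11.1 CPM, 8.01-fold higher (6.27 to 10.2). It was carried by 24 of 134 barcodes, and at E125 it was 3.37-fold lower (2.59 to 4.47), at 34.0 CPM against 115 CPM. The other barcodes of the E125 library thus held more CA4 than the set did. CDKN1A, the cell cycle inhibitor p21, was 5.13-fold higher (4.46 to 5.89) at E85, at 229 CPM against 44.7 CPM, and 2.88-fold higher (2.39 to 3.45) at E125, at 79.6 CPM against 27.6 CPM. With equal weight for each barcode its E85 ratio was 11.1. FMOD, the collagen-binding proteoglycan fibromodulin, was 4.97-fold higher at E85, and S100A1, a calcium-binding protein, 4.83-fold higher.

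Many of the lowest ratios belonged to genes known from other cell types. SPARCL1, a matricellular protein of stroma and vessels, stood at 4.25 CPM against 706 CPM at E125, 166-fold lower. CCL21, the chemokine of lymphatic endothelium, stood at 7.29 CPM against 524 CPM at E125 and 16.7 CPM against 242 CPM at E85. At E85 the stromal genes PDGFRA, a growth factor receptor, and LUM, a matrix proteoglycan, were 27.2-fold lower and 27.0-fold lower, and the egg coat gene ZP3 was 12.1-fold lower. The ZP3 ratio was 0.584 when each barcode had equal weight.

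Transcription factors of the gonad and coelomic epithelium differed between the stages in how many were called. At E125 7 of 12 measured factors were higher and 2 lower, with a median log2 ratio of 1.30, and at E85 2 of 7 were higher and 3 lower, with a median of -0.50. Over all measured features 6% were higher and 9.04% lower at E125, and 5.22% and 4.93% at E85, with medians of 0.05 and -0.08, which are the background of this and each list count below. SOX9, known as a factor of Sertoli cells and of several epithelia, was at 139.8 CPM against 20.6 CPM at E125, 6.79-fold higher (5.86 to 7.85), in 47 of 92 barcodes, and at 40.5 CPM against 19.8 CPM at E85, below the measuring limit. The Iroquois factors IRX3 and IRX5, which in the mouse act in pregranulosa cells, were 3.62-fold higher (3.15 to 4.13) and 5.02-fold higher (4.47 to 5.63) at E125. IRX5 was at 211 CPM against 42.0 CPM at E125 and 79.4 CPM against 11.4 CPM at E85. LHX9, a LIM homeobox factor of the mouse genital ridge, was under the limit but stood at 85.1 CPM against 7.70 CPM at E125 and 54.8 CPM against 17.2 CPM at E85. ID4, an inhibitor of basic helix-loop-helix factors, was 2.87-fold higher (2.46 to 3.33) at E125. TCF21, a factor of gonadal stroma, and TBX3, a T-box factor, were 41.3-fold lower and 3.48-fold lower at E125, and 13.9-fold lower and 2.87-fold lower at E85. The orphan receptor NR0B1 was 2.73-fold higher (2.40 to 3.1003) at E125 on summed counts, but its ratio was 0.623 when every barcode was thinned to 2000 UMIs.

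Complement, protease inhibitor and other barrier genes came next. Of these 3 of 9 measured genes were higher and 1 lower at E125, and 5 of 10 higher and none lower at E85, with median log2 ratios of 0.53 and 0.99. C3, the central complement component, was at 1150.0 CPM against 183 CPM at E125, 6.28-fold higher (5.97 to 6.60), in 76 of 92 barcodes, and at 127 CPM against 40.9 CPM at E85, 3.11-fold higher (2.60 to 3.70), in 35 of 134. CFD, the complement protease factor D, was 6.08-fold higher (5.75 to 6.43) at E125 and 2.13-fold higher (1.97 to 2.30) at E85. TIMP2, an inhibitor of matrix metalloproteases, was 2.27-fold higher and 2.33-fold higher at these stages, and CST3, the protease inhibitor cystatin C, was 2.21-fold higher at E85. The ratios of CFD and CST3 were 1.84 and 1.87 at E85 when barcodes with any UMI of the 4 granulosa genes were left out.

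Among retinoid genes 2 of 5 measured were higher and 1 lower at E125, and 1 of 4 higher and 1 lower at E85, with medians of 0.15 and -0.20. Beside RDH10, ALDH1A1, a retinaldehyde dehydrogenase, was at 173 CPM against 52.0 CPM at E125, 3.32-fold higher (2.93 to 3.75), in 56 of 92 barcodes. DHRS3, which turns retinaldehyde back into retinol, was 6.17-fold lower at E125 and 6.13-fold lower at E85.

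Mesenchymal genes were lower in the set at both stages, 9 of 12 measured at E125 and 9 of 11 at E85, with medians of -1.90 and -1.83. VIM, the intermediate filament vimentin, was at 1604 CPM against 3598 CPM at E125 and 1018 CPM against 2927 CPM at E85, so it was lower but not absent. SNAI2, a factor that represses epithelial genes, was 3.06-fold lower and 4.64-fold lower at these stages. COL1A1, a chain of type I collagen, was 6.33-fold lower at E125, where 1 barcode supplied 54 of its 93 UMIs, and 3.56-fold lower at E85.

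Mitosis genes were low in summed CPM. Per barcode, without thinning, at least 1 UMI of the list was in 40.2% of keratin-selected and 28.4% of other barcodes at E125. At E85 the shares were 37.3% and 23.7%. At E125 all 4 measured genes were lower, with a median of -5.16. TOP2A, the topoisomerase of dividing cells, had 3 UMIs in the set, 1.82 against 139.6 CPM. At E85 both measured genes were called lower, yet 1 barcode supplied 63 of the 70 TOP2A UMIs and 74 of the 87 CENPF UMIs, CENPF being a kinetochore protein. Across the alternative settings the E85 ratio lay between 0.0514 and 0.802 for TOP2A and between 0.0368 and 0.415 for CENPF, lowest without the barcodes of highest doublet score. CDKN1C, an inhibitor of cyclin-dependent kinases, was 2.55-fold higher at E125, and CCND1, which drives entry into the cell cycle, was 12.4-fold lower. The ratio of CDKN1C was 1.35 when each barcode had equal weight.

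Of the desmosome, adherens and tight junction genes 3 of 10 measured were higher and 1 lower at E125 and none of 5 at E85. Beside CDH2, these were the tight junction genes F11R, 2.50-fold higher, and PATJ, 2.34-fold higher, whose ratio was 1.69 with equal weight for each barcode. Basement membrane and integrin genes gave none higher and 3 lower of 12 at E125, and 3 higher of 7 at E85. WNT pathway genes gave 2 higher of 9 at E125, NKD1 and FRZB, both known as inhibitors of WNT signals, and none of 5 at E85. FRZB had a ratio of 1.16 at E125 with equal weight for each barcode. The WNT activators of ovary were hardly seen, with WNT4 at 3 and 0 UMIs and RSPO1 at 2 and 1 in the set at E125 and E85. Immediate early genes, which also respond to tissue dissociation, gave 4 higher and 1 lower of 9 at E125 and none of 6 at E85. FOS and JUN at E125 were 2.33-fold higher and 2.08-fold higher, with ratios of 1.42 and 1.28 when each barcode had equal weight.

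The set was also compared with granulosa cells, the somatic cells that enclose the oocyte. Granulosa barcodes were taken as those with 500 or more genes, at least 4 UMIs of FST, HSD17B1, INHA and AMH together, and the same germ cell and PECAM1 limits, with no condition on keratins. There were 529 at E125 and 69 at E85, with median depths of 8952 and 8590 UMIs. The 4 granulosa genes separate the classes by construction and are not results. At E125 173 features (6.86%) were higher and 97 (3.85%) lower in the keratin-selected barcodes. With TMM factors, which shift these log2 ratios by -0.25, the share of called features that were higher moved to 47.3%, against 64.1% without them. At E85 58 features (2.44%) were higher and 57 (2.4%) lower. With barcodes thinned to 2000 UMIs the counts were 234 higher and 169 lower at E125 and 141 and 202 at E85. The thinned granulosa sums rest on 69 barcodes at E85 and 500 at E125, so counting error is larger at E85. These counts therefore do not compare the stages.

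Several genes of the comparison with all other barcodes held against granulosa barcodes too. C3 was at 1150.0 CPM against 68.5 CPM at E125, 16.8-fold higher (15.2 to 18.5), and at 127 CPM against 31.3 CPM at E85, 4.06-fold higher (2.65 to 6.46). EMX2 was 5.44-fold higher (4.70 to 6.30) at E125 and 2.07-fold higher (1.53 to 2.84) at E85, where its ratio was 1.89 with the granulosa limit at 0, and KRT7 was 3.42-fold higher (2.999 to 3.91) and 3.59-fold higher (2.25 to 6.02). ACP5, the tartrate-resistant acid phosphatase, was at 425 CPM against 23.7 CPM at E125, 17.9-fold higher (15.2 to 21.2), and at 124.6 CPM against 21.3 CPM at E85, 5.86-fold higher (3.54 to 10.3). CHI3L1, a secreted chitinase-like lectin, was 14.6-fold higher at E125 and 4.48-fold higher at E85. OGN, the proteoglycan osteoglycin, led at E85, at 345 CPM against 42.5 CPM, 8.12-fold higher (5.72 to 11.9), and was 5.01-fold higher at E125. OGN is also a stromal gene, at 413 and 236 CPM in stromal barcodes at E125 and E85. The chemokine receptor CXCR4 was highest of all at E125, at 315 CPM against 11.7 CPM, 27.1-fold higher (21.6 to 34.2), and the VEGF receptor KDR was at 160.5 CPM against 8.58 CPM, 18.7-fold higher (14.3 to 24.8). KDR and CXCR4 were carried by 63 of 92 and 55 of 92 barcodes. PECAM1 is 0 by rule and the endothelial marker CLDN5 was at 0. At least 1 UMI of the endothelial list, which includes KDR, was nonetheless in 84.8% of keratin-selected and 56.0% of granulosa barcodes at E125. The part of endothelial RNA in these values was not tested.

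Genes lower than in granulosa barcodes included granulosa markers that the rule had not used, FSHR and ALPL among them. STC1, the secreted hormone stanniocalcin, was at 4.25 CPM against 252 CPM at E125, 59.2-fold lower (28.7 to 147), and at 12.7 CPM against 121 CPM at E85, 9.56-fold lower (5.60 to 17.4). FSHR, the receptor for follicle-stimulating hormone, had 5 UMIs in the set at E125, 3.04 against 111 CPM. ALPL, the tissue-nonspecific alkaline phosphatase, was 15.6-fold lower at E125 and 6.79-fold lower at E85, and NCAM1, a neural cell adhesion molecule, 38.3-fold lower and 5.12-fold lower. SYT6, a vesicle protein of the synaptotagmin family, and PCDH7, a protocadherin, were also lower at both stages. At E125 TOP2A and CENPF were lower as well, at 1.82 against 104 CPM and 7.90 against 146 CPM.

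The E125 and E85 sets were then set side by side. The stages differ by library, depth and the share of KRT19 barcodes, and the stage and the library cannot be told apart. Of 2530 measured features 342 (13.5%) were 2-fold higher and 135 (5.34%) 2-fold lower in the E125 set than in the E85 set. In the other barcodes the same contrast gave 377 of 2703 (13.9%) higher and 144 (5.33%) lower, so the share that differed was close to that of the libraries as a whole. The largest increases at E125 were shared with the other barcodes. C4orf48 was 40.6-fold higher at E125 in the set and 72.1-fold higher in the other barcodes, ID1, an inhibitor of differentiation factors, 18.03-fold and 35.3-fold, and GAS6, a ligand of TAM receptors, 15.3-fold and 22.6-fold. The 12 highest, C4orf48, ID1, SMAP1, CHCHD10, TAF10, ACBD3, GAS6, MICU3, QKI, PCOLCE2, PAWR and BCL7C, were between 9.92-fold and 40.6-fold higher in the set and between 5.16-fold and 72.1-fold higher in the other barcodes. All 12 were thus also higher in the other barcodes at E125. After thinning to 2000 UMIs the ratios in the set were 12.1 for C4orf48, 7.46 for ID1 and 8.34 for GAS6.

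Some genes did not follow the other barcodes. FRZB, a secreted WNT antagonist, was at 140.4 CPM in the E125 set and 26.2 CPM in the E85 set, 5.36-fold higher (3.71 to 7.97), whereas in the other barcodes it was at 56.4 and 72.1 CPM. SOX9 was at 139.8 CPM in the E125 set and 40.5 CPM in the E85 set, 3.45-fold higher (2.54 to 4.77), and at 20.6 and 19.8 CPM in the other barcodes. ALDH1A1 was 4.35-fold higher (3.21 to 5.998) in the E125 set, at 173 against 39.7 CPM, and stood at 52.0 and 36.4 CPM in the other barcodes. C3 was at 1150.0 CPM in the E125 set and 127 CPM in the E85 set, 9.05-fold higher (7.70 to 10.7), and at 183 and 40.9 CPM in the others, so it was higher at E125 in both.

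In the other direction, FMOD was at 18.8 CPM in the E125 set and 100.02 CPM in the E85 set, 5.31-fold lower (3.56 to 8.14), but at 31.6 and 20.1 CPM in the other barcodes. PCLO, a scaffold of presynaptic active zones, was 3.92-fold lower (3.01 to 5.14) in the E125 set and 1.79-fold higher in the other barcodes. IGFBP5, which binds insulin-like growth factors, was at 159 CPM in the E125 set and 679 CPM in the E85 set, and at 790.1 and 978 CPM in the other barcodes. PCSK1 was 3.32-fold lower (2.58 to 4.29) in the E125 set, and its ratio was 0.713 with equal weight for each barcode. In the other barcodes PCSK1 was lower at E125 than at E85 too, so its direction was shared. MYH11, a myosin of smooth muscle, was at 98.5 CPM in the E125 set and 257 CPM in the E85 set, and at 238 and 109 CPM in the other barcodes. The ratio of MYH11 in the set over the other barcodes was 0.581 at E125 without the deepest keratin-selected barcodes and 1.84 at E85 with the granulosa limit at 0, both short of the call. The difference between the contrasts was not tested for any of these genes. ISG15, an interferon-induced ubiquitin-like protein, was 5.82-fold lower (4.01 to 8.66) in the E125 set, with a ratio of 0.307 without the deepest barcodes, and CXCL10, an interferon-induced chemokine, had 330 of its 736 UMIs at E85 in 1 barcode.

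**Figure D3:**
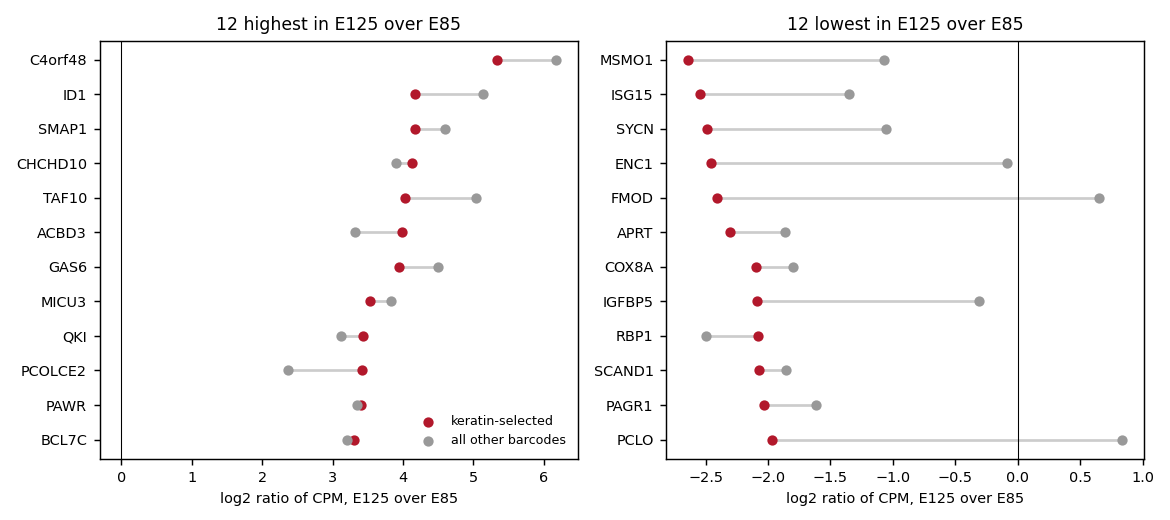
Log2 ratio of CPM at E125 over E85 (horizontal) for the 12 genes with the highest ratio in keratin-selected barcodes (left) and the 12 with the lowest (right), with a red point for keratin-selected and a grey point for all other barcodes. The 12 highest are above 0 in both, while FMOD and PCLO are below 0 in keratin-selected and above 0 in the other barcodes.

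The marker genes that were not part of the rule overlapped in part. A split chosen after the data were seen put barcodes with more NMB and PCSK1 than RDH10 UMIs in one group and those with more RDH10 in the other. The NMB and PCSK1 group held 41 barcodes at E125 and 69 at E85, and the RDH10 group 32 and 30, while 19 and 35 were tied and left out. Median depth was 18501 UMIs in the NMB and PCSK1 group and 11332.5 UMIs in the RDH10 group at E125, and 7748 and 9351 UMIs at E85. The median mitochondrial share was 5.61% and 8.32% at E125 and 8.20% and 11.6% at E85. NMB was found in 13 of 32 RDH10 barcodes at E125 and 19 of 30 at E85, and RDH10 in 27 of 41 and 26 of 69 NMB and PCSK1 barcodes. The levels of the 3 genes differ between the groups by construction and are not results, and the groups below are described with no test.

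At E125 29 of 2668 measured features (1.09%) were 2-fold higher in the NMB and PCSK1 group and 96 (3.6%) lower. At E85 74 of 2412 (3.07%) were higher and 159 (6.59%) lower, but with TMM factors, which move these ratios by 0.20 on the log2 scale, 109 were higher and 94 lower. Among features with a symbol measured at both stages 33 were lower in the NMB and PCSK1 group at both, 50.8% of those lower at E125 and 29.7% of those lower at E85. The 4 higher at both stages were C3, LHX9, ACP5 and VCAN, 28.6% and 8.51% of those higher at each.

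Several Notch genes, and PTCH1 of the hedgehog pathway, were more abundant in the RDH10 group. Of the Notch and hedgehog genes 4 of 5 measured at E125 and 4 of 4 at E85 were lower in the NMB and PCSK1 group, with median log2 ratios of -3.06 and -2.31 against 0.03 and -0.09 over all measured features. HES1, a Notch target that represses transcription, was at 3.93 CPM in the NMB and PCSK1 group and 129.6 CPM in the RDH10 group at E125, 33.0-fold lower (12.3 to 124.8), and at 21.2 against 160.2 CPM at E85, 7.55-fold lower (4.21 to 14.4). HEY2, another such target, had 3 UMIs against 88 at E125, 62.4-fold lower (20.7 to 308), and 14 against 61 at E85, 8.81-fold lower (4.87 to 17.1). NOTCH3, a Notch receptor, was 8.35-fold lower (4.47 to 16.7) at E125 and 2.26-fold lower (1.39 to 3.70) at E85, and PTCH1, the hedgehog receptor and target, was 3.03-fold lower (2.11 to 4.38) and 3.25-fold lower (2.13 to 5.00). Of the other hedgehog genes, GLI3 and HHIP were not higher in the RDH10 group, with GLI3, a transcription factor of the pathway, at 43.2 CPM in the NMB and PCSK1 group and 33.4 CPM in the RDH10 group at E125, and HHIP, a hedgehog-binding inhibitor, at 85.5 and 62.7 CPM. At E85 GLI3 had 20 and 3 UMIs and HHIP 5 and 2. HEY2 or HES1 was found in 7 of 41 NMB and PCSK1 barcodes and 22 of 32 RDH10 barcodes at E125, and in 16 of 69 and 27 of 30 at E85, so it was spread over most of the RDH10 group. After thinning to 2000 UMIs the E125 ratios were 0.195 for HES1 and 0.167 for HEY2. In granulosa barcodes either gene was found in 168 of 529 at E125 and 16 of 69 at E85.

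NR1H4, the bile acid receptor FXR, had 0 UMIs in the NMB and PCSK1 group and 175 in the RDH10 group at E125, at least 124-fold lower with 3 UMIs as the floor of the sum. At E85 it was at 59.4 against 352 CPM, 5.92-fold lower (4.14 to 8.62). It was found in 0 of 41 NMB and PCSK1 barcodes and 22 of 32 RDH10 barcodes at E125, and in 17 of 69 and 28 of 30 at E85. It was also found in 70 of 529 granulosa and 898 of 4446 stromal barcodes at E125, and in 21 of 69 and 462 of 2552 at E85, so it was not particular to the RDH10 group. MYH11 followed the same pattern, at 23.6 against 282 CPM at E125, 11.97-fold lower (7.71 to 19.3), and 113 against 498 CPM at E85, 4.40-fold lower (3.36 to 5.81). MYH11 and NOTCH3 are also perivascular and muscle markers, a list that summed to 85.5 CPM in the NMB and PCSK1 group and 431 CPM in the RDH10 group at E125, and to 250.4 and 675 CPM at E85. In the RDH10 group MYH11 and NOTCH3 had 135 and 51 UMIs at E125 and 174 and 38 at E85. They made up most of its sum, which therefore does not speak for the other genes of the list. RGS5, TAGLN, PDGFRB and MCAM of this list were at 0 UMIs in both groups at both stages. They were also low in the other barcodes at E125, at 6.20 to 9.76 CPM, so sums of 0 in these small groups say little. ACTA2, CNN1 and DES are not given by gene, and the part of perivascular RNA in the groups was not tested. SFRP2, a secreted WNT modulator also known from stroma, was 4.18-fold lower at E125 and 3.40-fold lower at E85. KRT7 was 9.70-fold lower (7.44 to 12.8) at E125, where 1 barcode supplied 29 of the 68 UMIs of the NMB and PCSK1 group, and 1.62-fold lower (1.09 to 2.40) at E85, short of the call. CDKN1A was 2.58-fold lower and 3.09-fold lower at these stages.

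**Figure D4:**
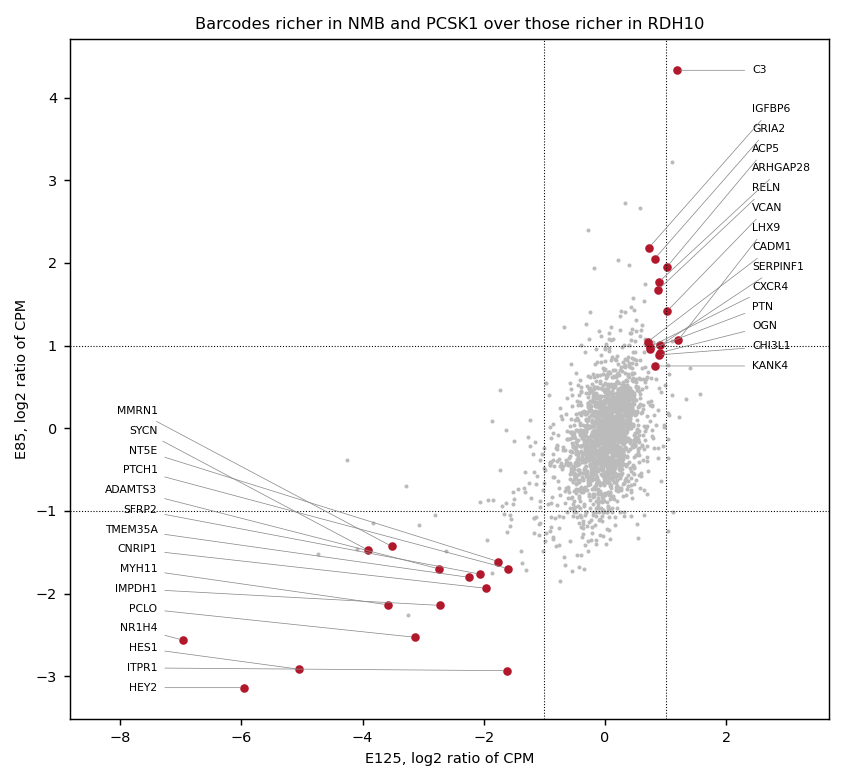
Log2 ratio of CPM in keratin-selected barcodes richer in NMB and PCSK1 over those richer in RDH10, at E125 (horizontal) and E85 (vertical), with each point a feature measured at both stages and dotted lines at 2-fold. HES1, HEY2 and NR1H4 lie below the lower 2-fold line on both axes, and C3 and LHX9 lie beyond 2-fold, upper right.

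On the other side, C3 was at 1331 CPM in the NMB and PCSK1 group and 585 CPM in the RDH10 group at E125, 2.27-fold higher (2.00 to 2.60). At E85 it had 122 UMIs against 3, 20.1-fold higher (6.72 to 98.9), with a ratio of 4.20 when barcodes were thinned to 2000 UMIs. LHX9 was 2.31-fold higher (1.45 to 3.83) at E125 and 2.09-fold higher (1.13 to 4.18) at E85, ACP5 2.02-fold higher (1.65 to 2.50) and 3.86-fold higher (2.29 to 6.97), and VCAN, the matrix proteoglycan versican, 2.03-fold higher (1.76 to 2.34) and 2.67-fold higher (1.83 to 3.99). The LHX9 ratio was 1.37 at E125 and 1.74 at E85 after thinning, and that of VCAN at E125 was 1.82 without barcodes of over 20% mitochondrial UMIs and 1.88 with the granulosa limit at 0. The E125 ratio of ACP5 was 1.83 without those high-mitochondrial barcodes, so these 3 calls were near the limit. CA4 at E85 was at 157 CPM in the NMB and PCSK1 group, with 111 UMIs, and at 0 UMIs in the RDH10 group, at least 18.3-fold higher. KITLG was 2.64-fold higher (1.83 to 3.91) at E85.

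Of the genes of coelomic epithelium, WT1, EMX2 and ALDH1A2 differed little between the groups, whereas LHX9 was higher in the NMB and PCSK1 group as given above. WT1 was at 676 CPM in the NMB and PCSK1 group and 537 CPM in the RDH10 group at E125, and at 501 and 423 CPM at E85. EMX2 was at 223 and 301 CPM at E125 and 133 and 206 CPM at E85. ALDH1A2 was at 95.3 and 64.8 CPM at E125 and 96.2 and 80.1 CPM at E85. The differences of these 3 genes were under 2-fold, whereas those of the Notch targets, NR1H4 and MYH11 were over 2-fold.

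Because the keratin-selected barcodes were deep, shares of barcodes with a UMI were compared after thinning each barcode to 2000 UMIs, which left out 1 keratin-selected barcode at E125 and 2 at E85. NMB was then found in 24.2% (15.8 to 34.3; 56.5% unthinned) of keratin-selected barcodes, 6.40% (30.6% unthinned) of granulosa barcodes and 1.02% (1.44% unthinned) of stromal barcodes at E125. At E85 the shares were 32.6% (24.7 to 41.3; 62.7% unthinned), 15.9% (49.3% unthinned) and 1.61% (2.59% unthinned). Stromal barcodes had median depths of 2947 UMIs at E125 and 2898.5 UMIs at E85 before thinning. The level of free RNA was not measured. EMX2 was in 38.5% (28.4 to 49.2; 82.6% unthinned) of keratin-selected barcodes at E125 and 24.2% (17.2 to 32.5; 62.7% unthinned) at E85. In endothelial barcodes, of at least 2 PECAM1 UMIs and median depths of 6558 and 7507 UMIs, it was in 0.829% (6.06% unthinned) and 1.27% (4.82% unthinned). ALDH1A2 was in 9.89% (4.62 to 17.9; 56.5% unthinned) and 18.2% (12.01 to 25.8; 40.3% unthinned) of keratin-selected barcodes at E125 and E85, against 0.824% (1.35% unthinned) and 0.928% (1.25% unthinned) of stromal ones. IRX5 was in 27.5% (18.6 to 37.8; 72.8% unthinned) and 13.6% (8.29 to 20.7; 38.8% unthinned) of keratin-selected barcodes at E125 and E85, against 0.398% (0.697% unthinned) and 0.195% (0.392% unthinned) of stromal ones. The 4 genes thus had intervals above these shares at equal depth, which were stromal for NMB, ALDH1A2 and IRX5 and endothelial for EMX2. Granulosa shares of EMX2 and ALDH1A2 are not given here, so these intervals do not set the set apart from granulosa barcodes. Against granulosa barcodes the IRX5 intervals overlapped, at 16.2% (13.1 to 19.7) at E125 and 8.70% (3.26 to 17.97) at E85, as did the NMB interval at E85.

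WT1, C3, RDH10 and KITLG were also common in other classes. WT1 was in 71.4% (61.0 to 80.4; 94.6% unthinned) of keratin-selected barcodes and 47.0% (60.2% unthinned) of stromal barcodes at E125, and in 56.1% (47.2 to 64.7; 80.6% unthinned) and 46.1% (57.2% unthinned) at E85. C3 was in 60.4% (49.6 to 70.5; 82.6% unthinned) and 26.8% (33.9% unthinned) at E125, and in 13.6% (8.29 to 20.7; 26.1% unthinned) and 6.11% (9.52% unthinned) at E85. RDH10 was in 29.7% (20.5 to 40.2; 69.6% unthinned) of keratin-selected barcodes and 18.9% (26.1% unthinned) of stromal barcodes at E125, and in 23.5% (16.5 to 31.6; 46.3% unthinned) and 6.11% (9.17% unthinned) at E85. KITLG was in 24.2% (15.8 to 34.3; 69.6% unthinned) of keratin-selected barcodes and 26.2% (53.4% unthinned) of endothelial barcodes at E125, and in 24.2% (17.2 to 32.5; 54.5% unthinned) and 29.1% (56.6% unthinned) at E85. At E125 the RDH10 interval lay just above the stromal share, and the KITLG share lay at or below that of endothelial barcodes at both stages.

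**Figure D5:**
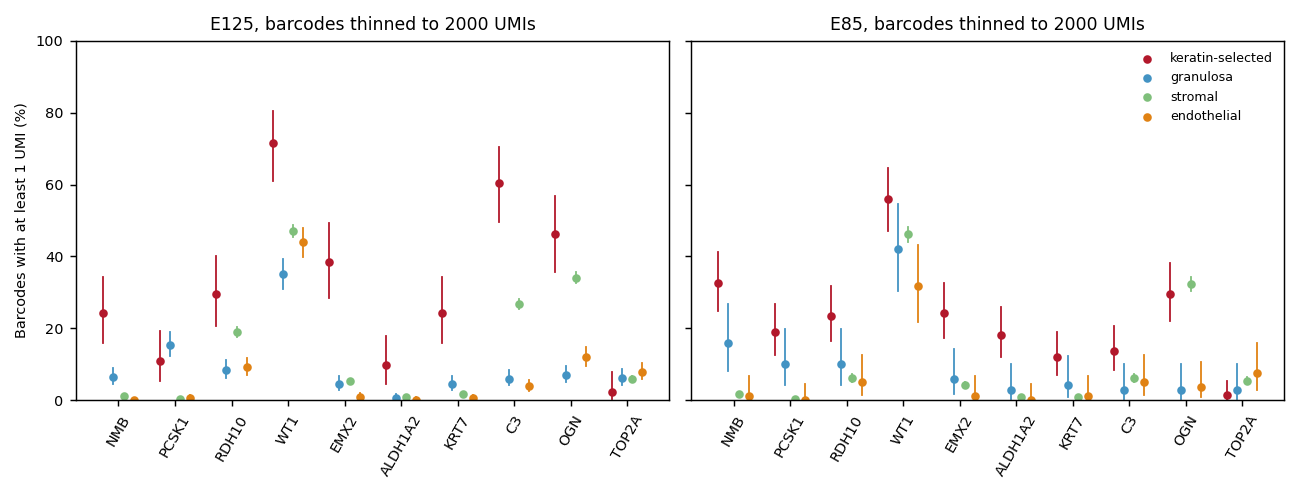
Percent of barcodes with at least 1 UMI (vertical) of 10 genes after thinning to 2000 UMIs, in keratin-selected, granulosa, stromal and endothelial barcodes at E125 and E85, with points for the share and lines for exact binomial 95% intervals. EMX2 and NMB stand higher in keratin-selected barcodes than in the other classes at both stages, and TOP2A does not.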

How the data were processed

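The deposited matrices hold UMI counts of 27271 features per barcode, 1 library for each of 2 stages. Per the file headers they were written by Cell Ranger 6.0.0, whereas the submitters' processing notes name Cell Ranger 3.1, and the genome build is not given in the sources used here. A symbol of their own was missing for 10655 features, which entered totals and counts of features but were not named. Counts of each barcode class were summed and divided by their total to give CPM, and a sum of 3 UMIs or fewer was set to 3 in a ratio. Intervals are exact, conditional on the sum of both counts for ratios and binomial for shares.

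The keratin-selected barcodes (the members) and the 29 gene lists were chosen with earlier results of these data known. Genes named beside the lists were, by fixed rules, the 15 highest and 10 lowest ratios per stage against the other barcodes, the 15 highest at both stages, the 12 highest and 12 lowest between stages, and the 10 highest and 10 lowest against granulosa barcodes. The split by NMB, PCSK1 and RDH10, and the genes named from it, were chosen after their values were seen, as were LHX9, SOX9, FRZB, ALDH1A1 and C3 in the contrast of stages. Scrublet, as run in scanpy 1.11.5, called 2 barcodes at E125 and 6 at E85 by its own threshold and so did not serve as a caller; leaving out the 580 and 158 barcodes of highest score was tried instead. Scaling factors of edgeR 4.0.16 (TMM) and DESeq2 1.42.0 were alternatives, as were the settings given at the end. The rule for ratios was tested on simulated data. Python 3.11.15, numpy 2.4.6, scipy 1.17.1, pandas 2.3.3 and R 4.3.3 were used.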

Additional observations from a re-analysis of the deposited data

Results flagged for a closer look

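CA4, a carbonic anhydrase of the cell surface, differed from the other barcodes in opposite directions at the 2 stages. Its ratio in the keratin-selected barcodes over the other barcodes was 0.297 at E125 and 8.01 at E85. It was at 34.0 CPM against 115 CPM at E125 and 88.9 CPM against 11.1 CPM at E85.

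MYH11, a smooth muscle myosin, showed the same order of directions. Its ratio was 0.414 at E125 and 2.37 at E85, with 98.5 CPM against 238 CPM at E125 and 257 CPM against 109 CPM at E85. The E125 ratio was 0.581 without the deepest keratin-selected barcodes and the E85 ratio 1.84 with the granulosa limit at 0, and neither passed 2-fold there. With 1 library at each stage the difference between the stages was not tested for either gene.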

How the results depend on the processing

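No paired analysis was possible because each stage had 1 library and the labels give no replicate numbers, and leaving out a library would leave no stage to describe. Barcodes that share a library share its free RNA and its handling, so the intervals say nothing of fetuses. Genes with few UMIs were limited by depth, and their intervals are wide.

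The counts of called features depended most on the filter and the fold. Higher and lower counts are given below in the order others at E125, others at E85, E125 over E85, granulosa at E125 and granulosa at E85. A mean CPM of 20 gave 301 and 607, 272 and 332, 662 and 332, 357 and 189, and 191 and 148. No filter on low values gave 927 and 2296, 1013 and 1374, 1442 and 1621, 1521 and 730, and 731 and 729. A fold of 1.5 gave 400 and 466, 256 and 302, 687 and 314, 466 and 195, and 163 and 209. A fold of 3 gave 60 and 145, 64 and 66, 147 and 38, 78 and 48, and 28 and 18. Thinning to 2000 UMIs gave 169 lower than granulosa at E125, and 141 higher and 202 lower at E85. Equal weight for each barcode gave 88 lower than granulosa at E85. The other alternatives left the 10 counts within 1.5 times.

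The keratin-selected barcodes numbered 103 and 72 at E125, and 171 and 91 at E85, with keratin thresholds of 3 and 6. With the granulosa limit at 0, a setting chosen after seeing the data, 51 remained at E125. Of the called features of the E125 set against the other barcodes 39.9% were higher, against 52.9% after thinning. In the split by NMB, PCSK1 and RDH10 the share at E85 was 31.8% without scaling factors, 53.7% with TMM and 49.5% with DESeq2 factors, and at E125 40 features were higher and 86 lower with TMM factors.

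Of 385 called ratios of named genes, between 338 (thinning) and 381 (highest Scrublet scores left out) kept direction and call under the settings that cover all comparisons. A ratio turned round for 2 genes. EZR, which links actin to the membrane, had an E85 ratio over the other barcodes of 0.494, but 1.41 without the other barcodes of 20000 or more UMIs, 1.64 with equal weight and 1.39 after thinning. The E125 ratio of NR0B1 was 2.73, and 0.623 after thinning. The cause was not tested.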

Other observations

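Of the growth factor and receptor genes 4 of 16 measured were higher and 2 lower in the keratin-selected barcodes than in the others at E125, and 5 of 12 higher and 1 lower at E85, with median log2 ratios of 0.35 and 0.03 against 0.05 and -0.08 over all measured features. PDGFA, a ligand of the stromal receptor PDGFRA, was 2.33-fold higher (2.15 to 2.52) at E125 and 3.01-fold higher (2.69 to 3.37) at E85, at 416 CPM against 179 CPM and 305 CPM against 101 CPM. EFNB1, a membrane-bound ligand of Eph receptors, was 2.23-fold higher (1.92 to 2.58) at E125 and 2.40-fold higher (1.95 to 2.94) at E85. The EFNB1 ratio was 1.82 at E125 with equal weight for each barcode and 1.19 at E85 after thinning. FGFR2, a receptor of epithelia for fibroblast growth factors, was 3.05-fold higher at E125. CXCL12, the ligand of CXCR4, was 5.03-fold lower (3.56 to 7.36) and 3.70-fold lower (2.65 to 5.33) at these stages.

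Of the BMP and TGF-beta genes 2 of 10 measured were higher at E125, BAMBI and LTBP1, and none of 6 at E85, where ID3 was lower. The LTBP1 ratio was 1.91 without the other barcodes of 20000 or more UMIs. None of 4 measured steroid genes at E125 and of 3 at E85 was called. Of the secretory granule and peptide genes NMB was the 1 higher gene of 4 at E125, and PCSK1 and NMB were higher and ADM lower of 3 at E85. KRT27, a keratin of hair follicles, was the other measured keratin, 4.42-fold higher (3.84 to 5.08) at E125 and 3.02-fold higher (2.64 to 3.46) at E85. All 11 measured mitochondrial genes stayed under 2-fold at both stages, with medians of 0.49 and 0.63.

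A single keratin-selected barcode at E125 carried 114 UMIs of 8 genes of motile cilia, all 8 of them detected, among 7429 UMIs in all. The next keratin-selected barcode had 4. It held 12 UMIs of KRT8, 6 of WT1 and 4 of EPCAM, but 0 of PAX8, NMB and RDH10. Among the other E125 barcodes 32 had 20 or more such UMIs, with a highest sum of 46. At E85 no keratin-selected barcode had more than 3.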
